A study of Mus musculus with 12 samples.

Results

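Selectins and cell adhesion molecules are surface proteins through which cells hold on to each other, to leukocytes and to matrix. The 9 genes described here are Sele, Selp, Vcam1, Icam1, Mcam, Alcam, L1cam, Ncam1 and Cd44. They were listed by symbol and matched through their mouse Ensembl IDs, with earlier results of these data known. They are 9 of the 54532 genes in a table of FPKM, that is fragments or reads scaled to transcript length and library size, from poly(A)-selected RNA of mouse melanoma cells. The 12 libraries form 4 groups of 3. Gli2CA cells are labelled as carrying an active mutant of Gli2, a transcription factor of the Hedgehog pathway, and their control is a non-targeted line called NTC. The other pair is made of Cas9 cells labelled as a CRISPR knockout of Gli2 and of a matched non-targeted control, Cas9-NTC. The labels give 1 line for all 4 groups and with it a shared genotype, including an activated BRAF kinase, which was not checked here. Every group was cultured in DMEM containing 10% FBS, an additive the labels call 1x AA, and puromycin at 1 ug/mL, and the Cas9 groups also received blasticidin at 10 ug/mL. The labels do not say what drives the active mutant, or whether a line is 1 clone. Nor do they tell if the 3 libraries of a group are separate cultures, so the p-values reflect only the variation among these libraries, which may be technical.

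E-selectin, encoded by Sele, and P-selectin, encoded by Selp, are lectins that are best known from activated endothelium, and P-selectin also from platelets. They catch rolling leukocytes by sialylated and fucosylated glycans, and the immunoglobulin-type proteins VCAM-1 and ICAM-1 then hold these cells through integrins. Mcam, Alcam, L1cam and Ncam1 encode immunoglobulin-type adhesion proteins found on melanoma or neural crest-derived cells, and Cd44 encodes the main receptor for hyaluronan. In endothelium, Sele, Vcam1 and Icam1 are textbook targets of NF-kappaB, the transcription factor that answers TNF and IL-1.

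The reference bases upstream of 3 of the genes are shown because Sele and Selp lie 67.0 kb apart on chromosome 1 and rose in the same cells, while Cd44 also changed but holds none of the motifs searched. The sequences are from RefSeq on GRCm38.p6 and run 5′ to 3′ on the strand of the gene through the 250 bases before its start. They are chr1:164047984-164048233 on the plus strand for Sele, chr1:164115014-164115263 on the plus strand for Selp and chr2:102901666-102901915 on the minus strand for Cd44. Capitals mark matches to a short NF-kappaB motif (GGNNNTTCC) or to a TATA box (TATAAA), each searched on both strands, and the motifs do not overlap in these windows.
Sele: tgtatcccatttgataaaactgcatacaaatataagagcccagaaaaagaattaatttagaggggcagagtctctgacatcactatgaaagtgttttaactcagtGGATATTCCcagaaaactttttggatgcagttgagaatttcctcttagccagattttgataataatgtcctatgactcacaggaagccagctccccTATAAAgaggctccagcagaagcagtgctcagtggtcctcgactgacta
Selp: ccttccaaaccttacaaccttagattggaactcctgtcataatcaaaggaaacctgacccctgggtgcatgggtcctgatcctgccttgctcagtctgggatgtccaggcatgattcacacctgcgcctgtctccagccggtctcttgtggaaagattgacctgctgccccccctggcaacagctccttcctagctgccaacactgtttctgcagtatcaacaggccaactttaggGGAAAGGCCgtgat
Cd44: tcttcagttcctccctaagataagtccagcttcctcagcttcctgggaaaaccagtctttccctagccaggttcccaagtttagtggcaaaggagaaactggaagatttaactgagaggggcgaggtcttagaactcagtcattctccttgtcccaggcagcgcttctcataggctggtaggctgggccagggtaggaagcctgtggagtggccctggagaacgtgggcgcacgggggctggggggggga
The Sele window holds GGATATTCC starting 145 bases before the start and TATAAA starting 49 bases before it, at positions -145 and -49. In Selp the match is GGAAAGGCC at position -14, which reads as the motif on the other strand. Among the 7 of the 9 genes with a promoter entry of 300 bases, Icam1 also held the short NF-kappaB motif, as GGAAATTCC at -153 and, on the other strand, GGAAATACC at -84, together with a TATAAA 14 bases into the transcribed part. No match to these motifs was found for Cd44, Mcam, Alcam or L1cam. A GLI motif (GACCACCCA) was found for none of the 7 genes. The short NF-kappaB motif occurs in 18.5% of the 32851 promoters of that length, TATAAA in 13.6% and the GLI motif in 0.253%, and a match describes letters and not a site of binding.

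**Figure D1:**
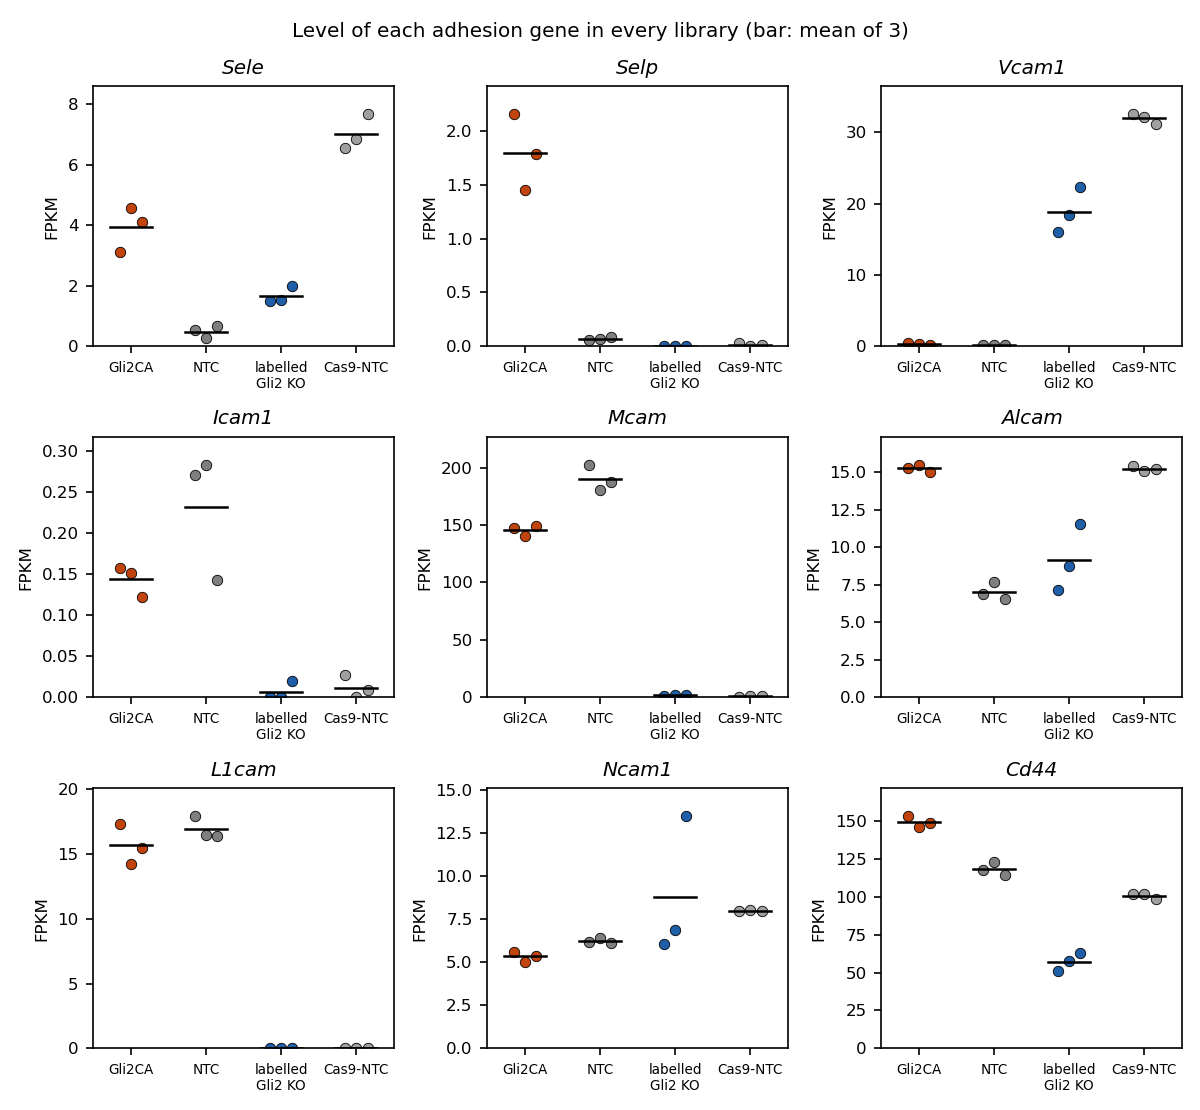
FPKM (vertical axis, linear, from 0) of each of the 9 adhesion genes in each of the 12 libraries, with Gli2CA left of NTC and the libraries labelled Gli2 knockout left of Cas9-NTC; points are libraries and bars are the means of 3. Mcam and L1cam are near 0 in both Cas9 groups, Vcam1 is near 0 in Gli2CA and NTC, and Selp stands above 1 FPKM in the Gli2CA libraries alone.

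The libraries held 15972800 to 25983200 reads, as recovered from the FPKM values, and the precision of a low value is that of its read count. Gli2 itself (chromosome 1, 118834132 to 119053619) gave 130, 140 and 345 reads in the libraries labelled Gli2 knockout, against 29, 61 and 42 reads in Cas9-NTC, so it was higher and not lower in the libraries that carry the knockout label (limma on genes above 0, adjusted p = 0.0171; exact permutation p = 0.1, the smallest possible). In the other pair it gave 1, 0 and 5 reads in Gli2CA and 0 in each NTC library, so no raised Gli2 level was seen in Gli2CA (limma on genes above 0, log2 change 0.02, adjusted p = 1; exact permutation p = 0.4) and the deposited values do not check that label. Counts per gene show neither an edit nor the protein, so the knockout label is not checked by them either. Among the libraries labelled Gli2 knockout, library 3 stood apart: its log values correlated across genes with those of libraries 1 and 2 at 0.940 and 0.961, while the other within-group pairs reached 0.986 to 0.995. Of 14 markers of melanocytes, Dct, Tyrp1, Slc45a2 and Oca2 were at 0 in every library. Sox10, the neural crest and melanocyte factor, averaged 162 FPKM in Gli2CA and 188 FPKM in NTC, but 0.00465 FPKM in the libraries labelled Gli2 knockout and 0.0280 FPKM in Cas9-NTC, although the labels name the same line. The list as a whole was split. Of its 4 genes tested, 2 were higher in Cas9-NTC than in NTC, among them Gpnmb, and 2 lower (limma, adjusted p under 0.05), beside 24.0% and 24.9% of all genes tested. The 14 markers summed to 163 to 179 FPKM in Gli2CA and 196 to 214 FPKM in NTC. The sums were 61.7 to 99.2 FPKM in the libraries labelled Gli2 knockout and 112 to 114 FPKM in Cas9-NTC. By mean level, most of the sum was Sox10 in Gli2CA and NTC, but Gpnmb in the Cas9 groups.

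A gene was called changed when its Benjamini-Hochberg adjusted p was under 0.05 in limma, fitted to log2(FPKM + 1) of the 11860 genes that reached 1 FPKM in 3 or more libraries. Of the 9 genes, 8 were tested, and Icam1 lay below that filter. Selp passed it through its Gli2CA libraries alone, so it had to differ there, and counts that include it are given as a description. In Gli2CA against NTC, 4 of the 8 were called higher (Sele, Selp, Alcam and Cd44), beside 8.45% of all genes tested, and 0 were called lower, beside 5.76%. In the libraries labelled Gli2 knockout against Cas9-NTC, 1 of the 8 was called higher (Mcam), beside 11.2% of all genes, and 4 were called lower (Sele, Vcam1, Alcam and Cd44), beside 15.7%. The median log2 change of the 8 was 0.249 in Gli2CA and -0.359 in the libraries labelled Gli2 knockout, against 0.00344 and -0.00848 over all genes tested. With library 3 of the knockout label left out, the count in that comparison became 1 higher and 5 lower, beside 30.9% and 34.8% of all genes. In a fit of the Cas9 groups alone it was 0 higher and 3 lower, beside 1.87% and 4.55%.

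**Figure D2:**
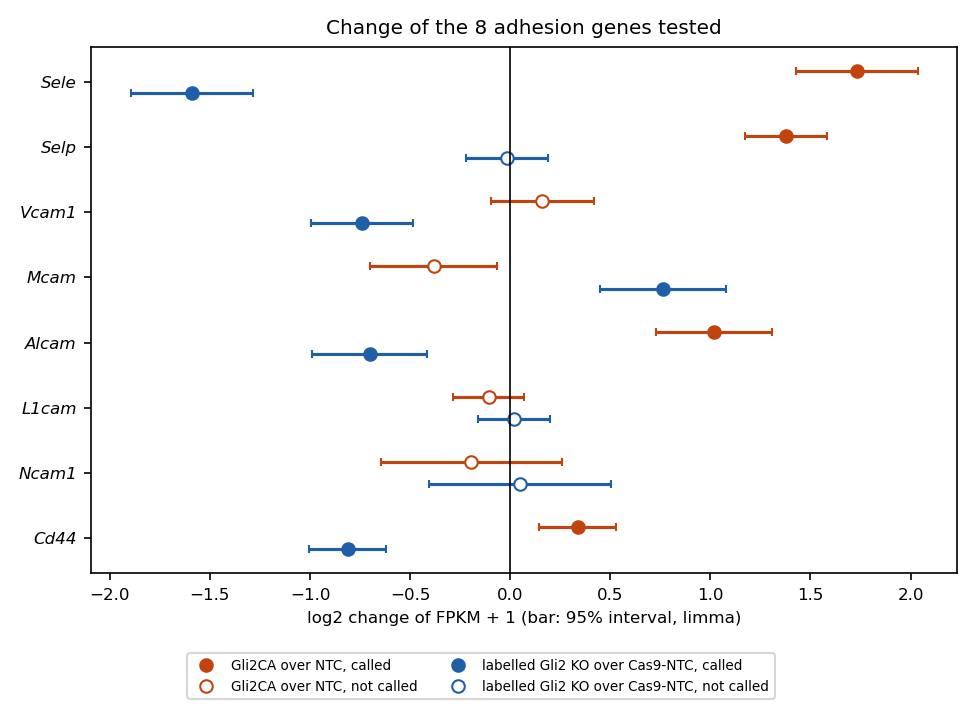
Log2 change of FPKM + 1 (horizontal axis) of the 8 adhesion genes tested, in Gli2CA over NTC (orange, upper of each pair) and in the libraries labelled Gli2 knockout over Cas9-NTC (blue, lower); bars are 95% intervals from limma and filled points were called. Sele, Alcam and Cd44 are called on opposite sides of 0 in the 2 comparisons, and both intervals of L1cam and of Ncam1 include 0.

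Sele (chromosome 1, 164048234 to 164057677, plus strand) rose in Gli2CA cells and fell in the libraries labelled Gli2 knockout. Its level was 3.12, 4.57 and 4.10 FPKM in the Gli2CA libraries, against 0.526, 0.263 and 0.663 FPKM in NTC. All Gli2CA libraries were above all NTC libraries, and the counts behind them, 611 reads in Gli2CA and 79 in NTC, were well above the limit of 3 reads used for detection. Mean FPKM was 8.12-fold higher in Gli2CA. The fit gave a change of 1.73 ± 0.14 in log2(FPKM + 1), a scale that shrinks changes of low genes (SE; limma, adjusted p = 8.36e-06). In the second experiment the level was 1.49, 1.52 and 2.002 FPKM in the libraries labelled Gli2 knockout, against 6.57, 6.84 and 7.68 FPKM in Cas9-NTC. Again the groups did not overlap, and Cas9-NTC was the highest of the 4 groups. Mean FPKM was 4.21-fold lower in the libraries labelled Gli2 knockout, and the change in log2(FPKM + 1) was -1.59 ± 0.14 (SE; limma, adjusted p = 2.50e-05). Leaving out any library or changing any setting tried did not end either call. In order of mean level the groups ran from NTC through the libraries labelled Gli2 knockout and Gli2CA to Cas9-NTC, and no neighbours in that order overlapped.

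Selp (chromosome 1, 164115264 to 164150026, plus strand) was found above trace level in Gli2CA cells. Its level was 2.16, 1.45 and 1.78 FPKM in the Gli2CA libraries, against 0.0595, 0.0667 and 0.0846 FPKM in NTC. The NTC values rest on 6, 5 and 6 reads and those of Gli2CA on 152, 116 and 148, with no overlap. Mean FPKM was 25.6-fold higher in Gli2CA and the log2 change of FPKM + 1, which understates changes of low genes, was 1.38. Because Selp passed the 1 FPKM filter through Gli2CA alone, its test is given from the fit of all genes above 0, which has no such filter (SE 0.07; limma, adjusted p = 3.86e-06). The libraries labelled Gli2 knockout held 0 reads each and Cas9-NTC 2, 0 and 1 reads, so both lie at or under the limit of 3 reads per library (0.0262 to 0.0401 FPKM in Cas9-NTC) and no fold is given. A difference between the Cas9 groups was not detectable at this depth (log2 change -0.02, 95% interval -0.22 to 0.19). The antisense transcripts Gm16587 and Gm16548, which share 4.22% and 9.93% of the exonic bases of Selp, had 0 FPKM in all libraries.

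Markers of the cells that usually express selectins were mostly low, with Flt1, Eng and, in the Cas9 groups, Cdh5 as exceptions. Of 16 endothelial markers, 2 averaged at least 1 FPKM in Gli2CA and in NTC, Flt1 and Eng (endoglin), and the summed level was 103 to 119 FPKM in Gli2CA against 90.8 to 98.6 FPKM in NTC. Most of that sum was Eng, with 86.1 FPKM in Gli2CA and 88.9 FPKM in NTC. Pecam1 had at most 0.0615 FPKM in any library, and Cldn5 and Sox17 were at 0 throughout. Sox18, below the filter, had 0.580, 0.580 and 0.361 FPKM in Gli2CA, against 0.0541, 0 and 0 FPKM in NTC, and 0 in the Cas9 groups. Cdh5 had 0.357, 0.224 and 0.291 FPKM in Gli2CA, against 0.0521, 0 and 0.0148 FPKM in NTC, and was not called. Esam went the other way, with 0 in each Gli2CA library and 0.0153 to 0.0651 FPKM in NTC. Flt1, a VEGF receptor, was called higher in Gli2CA, with 21.4 ± 1.37 FPKM against 4.94 ± 0.466 FPKM in NTC (SD, n = 3 each; limma, log2 change 1.91, adjusted p = 5.70e-05). None of 8 platelet markers averaged 1 FPKM in a group, with sums of 0.365 to 0.714 FPKM in Gli2CA and 0.136 to 0.668 FPKM in NTC, and Gp1bb was at 0 in all libraries. Between the Cas9 groups 1 of the 3 endothelial markers tested was called higher and 2 lower, beside 11.2% and 15.7% of all genes tested. The summed level was 34.5 to 84.2 FPKM in the libraries labelled Gli2 knockout and 74.2 to 76.0 FPKM in Cas9-NTC. Cdh5 (VE-cadherin) had 6.17, 8.76 and 19.3 FPKM in the libraries labelled Gli2 knockout, against 2.47, 2.97 and 2.99 FPKM in Cas9-NTC (limma, log2 change 1.56, adjusted p = 0.00315). Flt1 was called lower, with 2.13, 2.80 and 5.26 FPKM in the libraries labelled Gli2 knockout, against 7.62, 8.13 and 8.26 FPKM in Cas9-NTC (limma, log2 change -1.0975, adjusted p = 0.00317), so it was called in the same directions as Sele in both experiments. The calls of Cdh5 and Flt1 ended in the fit of the 2 groups alone (limma, adjusted p = 0.0703 and 0.0665). Eng, with 25.3, 29.1 and 59.1 FPKM in the libraries labelled Gli2 knockout, against 62.5, 64.1 and 63.8 FPKM in Cas9-NTC, was called lower (limma, log2 change -0.83, adjusted p = 0.0276), but not in the fits of the 2 groups alone or without the filter, nor without library 1 or 2 of the knockout label or any library of Cas9-NTC (limma, adjusted p 0.0641 to 0.158). The leukocyte marker Cd68, which is also a lysosomal protein of other cells, averaged 7.17 FPKM in Gli2CA against 1.45 FPKM in NTC and 1.73 FPKM in the libraries labelled Gli2 knockout against 9.28 FPKM in Cas9-NTC. It is 1 of 14 leukocyte markers whose sum was 7.93 to 9.93 FPKM in Gli2CA against 2.20 to 3.07 FPKM in NTC, and 9.79 to 13.6 FPKM in the libraries labelled Gli2 knockout against 13.3 to 13.7 FPKM in Cas9-NTC. Most of the sum was Cd68 in Gli2CA and in Cas9-NTC. In the libraries labelled Gli2 knockout most of it was another of the markers, Itgb2, with 7.99 to 11.1 FPKM against 3.23 to 3.72 FPKM in Cas9-NTC. The pan-leukocyte marker Ptprc had at most 0.0419 FPKM and Cd3e was at 0 in all libraries. The part of these cell types in the selectin levels was not tested, and in bulk RNA fewer expressing cells and less RNA per cell cannot be told apart.

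Selp starts 67.0 kb after Sele. The flanking genes, looked at after the selectin values were known, are Kifap3, Scyl3, Mettl18, Slc19a2, Ccdc181, Blzf1 and Nme7, and none of these 7 was called in either comparison. The BC055324 gene 53.4 kb before Sele was called lower in Gli2CA, with 2.07 FPKM against 3.67 FPKM in NTC (limma, log2 change -0.60, adjusted p = 0.00203), which is the opposite direction to the selectins. F5, next to Selp, had group means of 0.0214 FPKM or less.

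**Figure D3:**
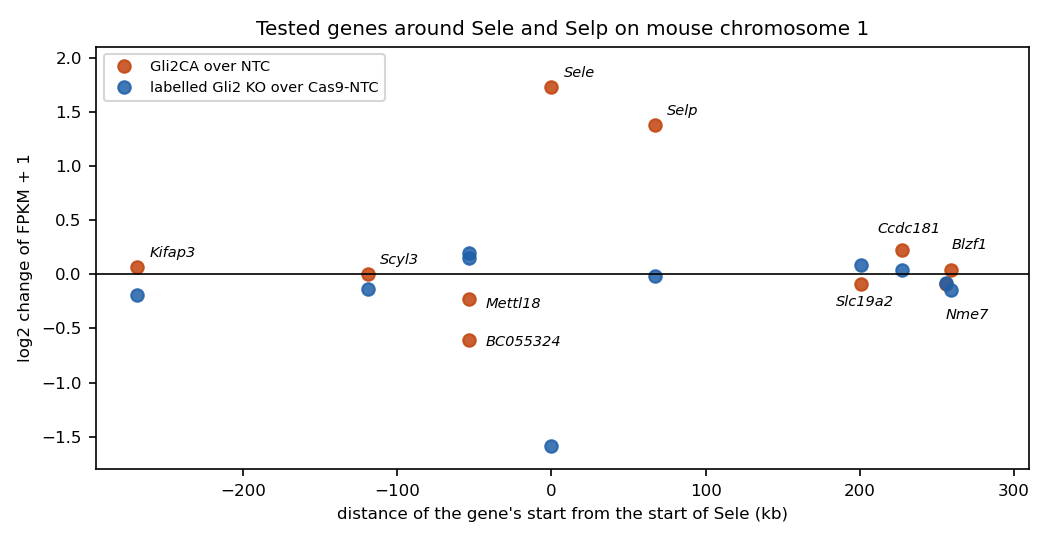
Log2 change of FPKM + 1 (vertical axis) of the tested genes around the selectins, against the distance of the start of each gene from the start of Sele in kb (horizontal axis); orange is Gli2CA over NTC and blue the libraries labelled Gli2 knockout over Cas9-NTC. Sele at 1.73 and Selp at 1.38 stand above the 8 neighbours in Gli2CA, and Sele at -1.59 stands below them in the libraries labelled Gli2 knockout.

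The integrin ligands of the immunoglobulin family showed other patterns. Vcam1 (chromosome 3, 116109949 to 116129688, minus strand), which is bound by the integrin VLA-4, fell in the libraries labelled Gli2 knockout. It had 16.0, 18.5 and 22.3 FPKM in those libraries, against 32.6, 32.2 and 31.2 FPKM in Cas9-NTC. All values of Cas9-NTC were higher, and the libraries labelled Gli2 knockout spread more widely (SD 3.18 against 0.703 FPKM). Mean FPKM was 1.69-fold lower, and the change in log2(FPKM + 1) was -0.74 ± 0.12 (SE; limma, adjusted p = 0.00140). In the first experiment Vcam1 stayed low, with 0.402, 0.374 and 0.174 FPKM in Gli2CA, against 0.148, 0.252 and 0.126 FPKM in NTC. These groups overlapped and the change of 0.16 (95% interval -0.10 to 0.42) was not called (limma, adjusted p = 0.455); with quantile normalisation it was -0.07. Icam1 (chromosome 9, 21015985 to 21028817, plus strand), the ligand of the integrin LFA-1, gave 11, 12 and 10 reads in Gli2CA, against 27, 21 and 10 reads in NTC, which is 0.122 to 0.158 FPKM against 0.143 to 0.283 FPKM. The ranges overlapped, and neither the exact permutation test (p = 0.3) nor limma on genes above 0 (log2 change -0.11, adjusted p = 0.186) showed a change. In the Cas9 groups it gave 0, 0 and 2 reads in the libraries labelled Gli2 knockout and 2, 0 and 1 reads in Cas9-NTC, at or under the limit of detection (exact permutation p = 0.7). The antisense gene Gm47079 covers 11.7% of the exonic bases of Icam1, so its few reads are uncertain.

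Mcam (chromosome 9, 44134469 to 44142727, plus strand), also called CD146 and long used as a melanoma marker in human tissue, was abundant in the first pair of lines and low in the second. It had 147, 140.1 and 149 FPKM in Gli2CA, against 202, 181 and 187 FPKM in NTC. All Gli2CA libraries were lower, yet the change of -0.38 (95% interval -0.70 to -0.07 on the log2 scale) was not called in the fit of all groups (limma, adjusted p = 0.110). It was called in the fit of the 2 groups alone (limma, adjusted p = 0.00502) and under 5 other alternatives. In the second pair it had 1.36, 2.40 and 2.30 FPKM in the libraries labelled Gli2 knockout, against 0.493, 0.847 and 0.965 FPKM in Cas9-NTC. Here it rose 2.63-fold in mean FPKM with no overlap. The change in log2(FPKM + 1), which shrinks changes of low genes, was 0.76 ± 0.14 (SE; limma, adjusted p = 0.00407). In the fit of these 2 groups alone this call ended (limma, adjusted p = 0.0649). The antisense gene Gm10687 shares 17 bases with Mcam and reached 3.74 FPKM in 1 library.

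Alcam (chromosome 16, 52248996 to 52454074, minus strand) encodes CD166, which binds itself and the lymphocyte receptor CD6. It rose in Gli2CA to 15.3, 15.5 and 15.0 FPKM, against 6.90, 7.68 and 6.53 FPKM in NTC. The groups were far apart for their spread, and mean FPKM was 2.17-fold higher (limma, log2 change 1.02 ± 0.13 SE, adjusted p = 0.000293). In the libraries labelled Gli2 knockout it fell to 7.13, 8.75 and 11.5 FPKM, against 15.4, 15.1 and 15.2 FPKM in Cas9-NTC. No library overlapped, but library 3 of the knockout label, which stood apart over all genes, was nearest to Cas9-NTC. Mean FPKM was 1.67-fold lower (limma, log2 change -0.70 ± 0.13 SE, adjusted p = 0.00389), and the call ended in the fit of the 2 groups alone (limma, adjusted p = 0.0676). Without library 3 the change was -0.87 (limma, adjusted p = 8.63e-06).

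L1cam (X chromosome, 73853778 to 73896105, minus strand), a neural adhesion protein also found on tumour cells, did not pass the test in either Gli2 comparison. It had 17.3, 14.3 and 15.5 FPKM in Gli2CA, against 18.0, 16.5 and 16.4 FPKM in NTC. The groups overlapped, with a log2 change of -0.11 (95% interval -0.29 to 0.07; limma, adjusted p = 0.478). The Cas9 groups held 1, 3 and 4 reads in the libraries labelled Gli2 knockout and 0, 2 and 0 reads in Cas9-NTC. These counts are too low to show a difference at this depth. Ncam1 (chromosome 9, 49502136 to 49798925, minus strand), the neural cell adhesion protein CD56, had 5.59, 5.05 and 5.39 FPKM in Gli2CA, against 6.20, 6.43 and 6.13 FPKM in NTC. All Gli2CA libraries were lower, but the change of -0.19 (95% interval -0.65 to 0.26) was not called (limma, adjusted p = 0.642). In the libraries labelled Gli2 knockout it had 6.06, 6.89 and 13.5 FPKM, against 8.003, 8.03 and 7.996 FPKM in Cas9-NTC. Libraries 1 and 2 lay below Cas9-NTC and library 3 above it, and the change over all 3 was 0.05 (limma, adjusted p = 0.878). Without library 3 the change was -0.27 and called (limma, adjusted p = 0.00434), so 1 library decides this value. Without library 3 the change in Gli2CA, still -0.19, was also called (limma, adjusted p = 0.0322), since all groups share 1 estimate of the spread.

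Cd44 (chromosome 2, 102811141 to 102901665, minus strand) was abundant in every group. It had 153, 146 and 149 FPKM in Gli2CA, against 118, 123 and 114 FPKM in NTC. All Gli2CA libraries were higher, by 1.26-fold in mean FPKM (limma, log2 change 0.34 ± 0.09 SE, adjusted p = 0.0246). The call is weak, since it ended with quantile normalisation (limma, adjusted p = 0.388) and when library 1, 2 or 3 of Gli2CA or library 1 or 3 of NTC was left out (limma, adjusted p 0.0672 to 0.0937). In the libraries labelled Gli2 knockout Cd44 fell to 50.9, 57.5 and 62.9 FPKM, against 102, 102 and 98.4 FPKM in Cas9-NTC. Those groups were far apart, with mean FPKM 1.76-fold lower (limma, log2 change -0.81 ± 0.09 SE, adjusted p = 0.000109), and every alternative tried kept this call.

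The changes in the 2 experiments, which share no libraries, were also set against each other in the same fit, as the Gli2CA change less that of the libraries labelled Gli2 knockout. Of the 8 genes, 5 were called higher by this measure, beside 16.7% of all genes tested, and 1 lower, beside 11.6%, with a median of 1.03 against 0.00675 over all genes. The largest difference was that of Sele, at 3.32 ± 0.20, followed by Alcam at 1.72, Selp at 1.40, Cd44 at 1.15 and Vcam1 at 0.90. Mcam differed the other way, at -1.14 (limma, adjusted p = 0.00192). For Sele, and for Alcam and Cd44 with the limits given above, the changes were called with opposite signs in the 2 experiments. Selp entered this count through its Gli2CA libraries, and its difference was also called without the filter (limma, adjusted p = 3.00e-05). For Selp and Vcam1 the difference rests on 1 experiment, since the gene was near 0 in the other pair of lines. L1cam at -0.13 and Ncam1 at -0.24 were not called (limma, adjusted p = 0.418 and 0.536).

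The control lines differed from each other in most of these genes. Cas9-NTC differs from NTC in Cas9, in blasticidin and possibly in handling or origin, which cannot be told apart, and each control is also part of 1 comparison above. Between them, 3 of the 8 genes were called higher in Cas9-NTC (Sele, Vcam1 and Alcam), beside 24.0% of all genes tested, and 3 lower (Mcam, L1cam and Cd44), beside 24.9%. Vcam1 averaged 32.0 ± 0.703 FPKM in Cas9-NTC and 0.176 ± 0.0672 FPKM in NTC (SD, n = 3 each), a ratio of 182 (limma, adjusted p = 2.64e-11). Sele was 14.5-fold higher in Cas9-NTC and Alcam 2.16-fold (limma, adjusted p = 4.14e-08 and 5.18e-05). Mcam went the other way, with 0.769 ± 0.246 FPKM in Cas9-NTC and 190.1 ± 11.1 FPKM in NTC (SD, n = 3 each), 247-fold lower (limma, adjusted p = 9.58e-12). L1cam had 2 reads over the 3 Cas9-NTC libraries and 7011 reads over those of NTC. Icam1 had 3 reads in Cas9-NTC and 58 reads in NTC (limma on genes above 0, adjusted p = 0.000359; exact permutation p = 0.1). The difference of Cd44, 100.6 FPKM in Cas9-NTC and 118 FPKM in NTC (limma, adjusted p = 0.0491), lost its call under 13 of 21 alternatives, and Ncam1 at 0.31 on the log2 scale was not called (limma, adjusted p = 0.237).

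In order of mean level over the 4 groups, Vcam1 ran from NTC and Gli2CA, which overlapped, to a middle level in the libraries labelled Gli2 knockout and the highest in Cas9-NTC. Alcam was lowest in NTC, overlapped it in the libraries labelled Gli2 knockout, and was highest in Cas9-NTC and Gli2CA, which overlapped (15.2 FPKM in mean in both). Cd44 ran from the libraries labelled Gli2 knockout through Cas9-NTC and NTC to Gli2CA with no overlap of neighbours. Mcam ran from Cas9-NTC through the libraries labelled Gli2 knockout and Gli2CA to NTC, also with none. For Ncam1 the order was Gli2CA, NTC and Cas9-NTC, without overlap, and then the libraries labelled Gli2 knockout, which overlapped Cas9-NTC.

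The products that selectins bind, and the enzymes that build their glycans, were measured as a list of 21 genes, of which 13 were tested. In Gli2CA 2 were called higher and 2 lower, beside 8.45% and 5.76% of all genes tested, and in the libraries labelled Gli2 knockout 3 were called higher and 4 lower, beside 11.2% and 15.7%, with medians of 0.0401 and -0.308. Lgals3bp, a secreted glycoprotein described as an E-selectin ligand in human tumour cells, had 5.98, 5.05 and 6.38 FPKM in Gli2CA, against 0.492, 0.372 and 0.656 FPKM in NTC. In the second pair it had 19.9, 24.8 and 38.2 FPKM in the libraries labelled Gli2 knockout, against 73.1, 74.6 and 71.5 FPKM in Cas9-NTC. It was thus higher in Gli2CA (limma, log2 change 2.17, adjusted p = 1.42e-05) and lower in the libraries labelled Gli2 knockout (limma, log2 change -1.42, adjusted p = 0.000431), the same directions as Sele. Podxl, a sialomucin that can carry selectin ligands, averaged 6.83 ± 0.506 FPKM in Gli2CA and 2.85 ± 0.277 FPKM in NTC, and 1.29 ± 0.338 FPKM in the libraries labelled Gli2 knockout and 4.19 ± 0.389 FPKM in Cas9-NTC (SD, n = 3 each). It was called higher in Gli2CA, at 1.03, and lower in the libraries labelled Gli2 knockout, at -1.19 (limma, adjusted p = 9.88e-05 and 4.81e-05). Gmds, an enzyme of GDP-fucose synthesis, was called lower in Gli2CA, at -0.44, but not when any 1 library of these 2 groups was left out (limma, adjusted p 0.0510 to 0.131). Golm1, a Golgi membrane protein, was called higher in the libraries labelled Gli2 knockout, with 25.0 FPKM against 15.2 FPKM in Cas9-NTC. Selplg, the P-selectin ligand of leukocytes, had at most 0.0583 FPKM.

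**Figure D4:**
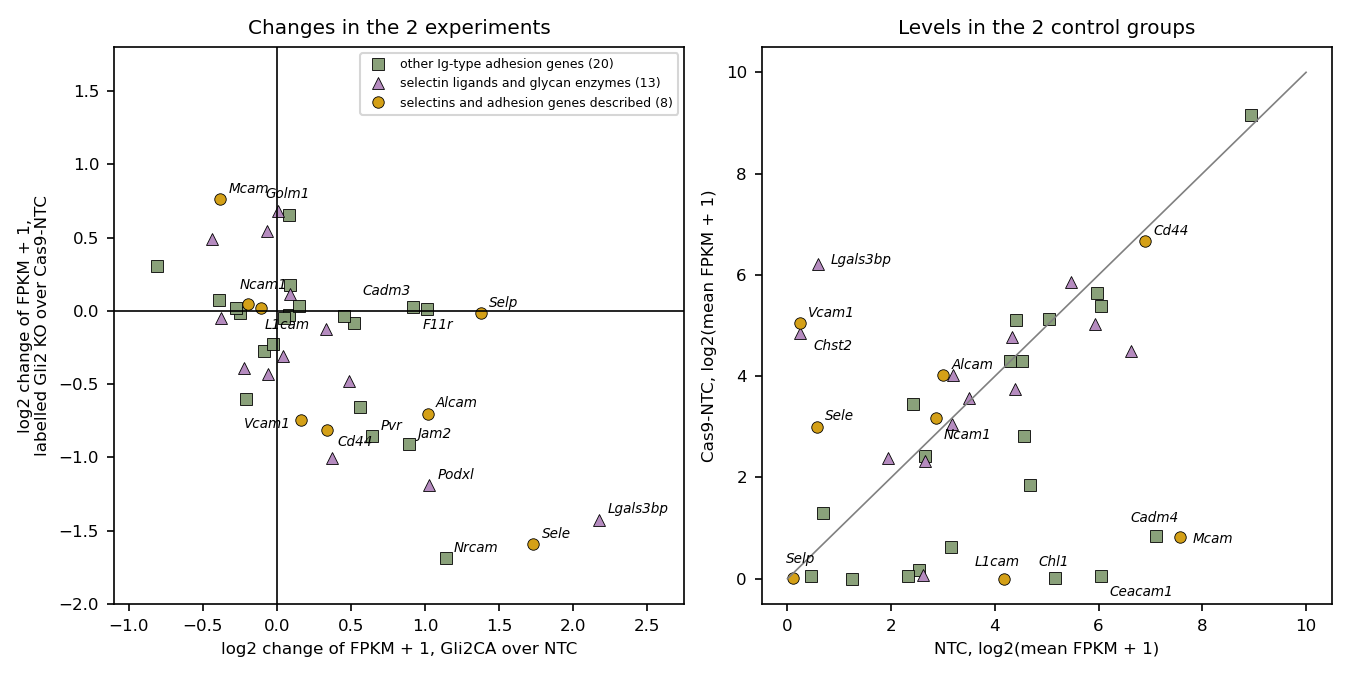
Left, log2 change of FPKM + 1 in the libraries labelled Gli2 knockout over Cas9-NTC (vertical axis) against that in Gli2CA over NTC (horizontal axis) for the tested genes of 3 lists, with lines at 0; right, log2 of mean FPKM + 1 in Cas9-NTC (vertical) against NTC (horizontal), with the line of equal levels. Circles are the 8 selectin and adhesion genes, triangles 13 selectin ligands and glycan enzymes, and squares 20 other immunoglobulin-type adhesion genes; Sele, Alcam, Lgals3bp, Podxl and Nrcam lie at the lower right of the left panel, and Mcam and L1cam lie far below the line on the right.

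Other immunoglobulin-type adhesion genes formed a list of 43, of which 20 were tested. In Gli2CA 8 were called higher and 3 lower, beside 8.45% and 5.76% of all genes tested, and in the libraries labelled Gli2 knockout 1 was called higher and 6 lower, beside 11.2% and 15.7%. The 8 include Cadm3, which passed the filter through its Gli2CA libraries alone and had to differ there, so that count is given as a description. The medians were 0.0845 and -0.0312. Nrcam, a relative of L1cam, had 47.1, 44.2 and 45.4 FPKM in Gli2CA, against 20.01, 21.1 and 19.3 FPKM in NTC, and 6.90, 9.50 and 14.1 FPKM in the libraries labelled Gli2 knockout, against 33.7, 34.0 and 33.3 FPKM in Cas9-NTC. No libraries overlapped in either pair, and it was called higher in Gli2CA, at 1.14, and lower in the libraries labelled Gli2 knockout, at -1.69 (limma, adjusted p = 0.00112 and 9.17e-05). Jam2, a junctional protein, and Pvr, the poliovirus receptor homologue that binds lymphocyte receptors, were called higher in Gli2CA and lower in the libraries labelled Gli2 knockout too. Jam2 averaged 46.7 FPKM in Gli2CA and 24.7 FPKM in NTC, and 0.921 FPKM in the libraries labelled Gli2 knockout and 2.62 FPKM in Cas9-NTC. Pvr averaged 50.2 FPKM in Gli2CA and 31.8 FPKM in NTC, and 18.3 FPKM in the libraries labelled Gli2 knockout and 33.9 FPKM in Cas9-NTC. F11r, another junctional adhesion protein, and Cadm3, a nectin-like protein, were called higher in Gli2CA, at 1.01 and 0.92, and were at trace level in the Cas9 groups. The adjusted p of F11r was 2.32e-05 (limma), and that of Cadm3, which passed the filter through its Gli2CA libraries alone, was 0.000235 in the fit without the filter (limma). Between the controls, 3 of the 20 were called higher in Cas9-NTC and 13 lower, beside 24.0% and 24.9% of all genes tested.

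The partners that the 9 proteins bind, a list of 22 genes with 13 tested, gave 2 called higher and 0 lower in Gli2CA, beside 8.45% and 5.76% of all genes tested, and 1 higher and 4 lower in the libraries labelled Gli2 knockout, beside 11.2% and 15.7%. Their medians were 0.194 and -0.409. Spp1, or osteopontin, which binds CD44 and integrins, averaged 279 ± 14.3 FPKM in Gli2CA and 123 ± 8.96 FPKM in NTC (SD, n = 3 each; limma, log2 change 1.18, adjusted p = 0.000306). Itgb1, the beta chain of VLA-4, averaged 783 FPKM in Gli2CA and 576 FPKM in NTC, at 0.44, a call that ended with quantile normalisation (limma, adjusted p = 0.439). Itgb7, a beta chain that pairs with the alpha 4 chain on lymphocytes, had 6.06, 7.03 and 11.4 FPKM in the libraries labelled Gli2 knockout, against 41.8, 43.2 and 43.8 FPKM in Cas9-NTC. That is a log2 change of -2.31 (limma, adjusted p = 1.53e-05). Itgb2, the beta chain of LFA-1 and a leukocyte marker, rose to 8.07, 7.99 and 11.1 FPKM in the libraries labelled Gli2 knockout, against 3.23, 3.24 and 3.72 FPKM in Cas9-NTC, while its partner chain Itgal had at most 0.0539 FPKM. Itga5, a fibronectin receptor chain, was lower in the libraries labelled Gli2 knockout, at -1.17, a call that ended in the fit of the 2 groups alone (limma, adjusted p = 0.0814).

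Genes that make, degrade or present hyaluronan or handle CD44 formed a list of 21, with 14 tested. In Gli2CA 1 was called higher and 3 lower, beside 8.45% and 5.76% of all genes tested, and in the libraries labelled Gli2 knockout 1 was called higher and 7 lower, beside 11.2% and 15.7%, with medians of -0.00744 and -0.320. In the fit of the Cas9 groups alone 0 of the 14 were called in either direction, beside 1.87% of all genes called higher and 4.55% lower. Ezr, or ezrin, which links CD44 to actin, averaged 70.5 ± 3.65 FPKM in Gli2CA and 39.98 ± 4.19 FPKM in NTC, and 9.07 ± 4.07 FPKM in the libraries labelled Gli2 knockout and 14.7 ± 0.465 FPKM in Cas9-NTC (SD, n = 3 each). Its calls, higher in Gli2CA at 0.81 and lower at -0.72 in the libraries labelled Gli2 knockout (limma, adjusted p = 0.0256 and 0.0306), depended on single libraries. The first ended without library 1, 2 or 3 of Gli2CA or library 2 or 3 of NTC (limma, adjusted p 0.0623 to 0.1002), and the second without library 1 or 2 of the knockout label or any library of Cas9-NTC (limma, adjusted p 0.0703 to 0.118). Hmmr, a hyaluronan receptor of dividing cells, was called lower in Gli2CA, with 14.9 FPKM against 22.2 FPKM in NTC (limma, log2 change -0.54, adjusted p = 0.00273). Tnfaip6, which modifies hyaluronan, was called lower in Gli2CA, at -0.45, and lost its call under 12 alternatives, among them without library 1 or 3 of Gli2CA, 2 or 3 of NTC, 2 of the knockout label or 1 or 2 of Cas9-NTC (limma, adjusted p 0.0609 to 0.176). Mmp14, a protease that cleaves CD44, and Msn, or moesin, were called lower in the libraries labelled Gli2 knockout, at -0.83 and -0.78 (limma, adjusted p = 0.0369 and 0.0384), and lost these calls in the fit of the 2 groups alone (limma, adjusted p = 0.176 and 0.180). The calls also ended when any 1 library was left out, except library 3 of the knockout label for both and library 2 of NTC for Mmp14 (limma, adjusted p 0.0520 to 0.134).

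NF-kappaB and the cytokine genes around it formed a list of 25, with 20 tested. In Gli2CA 4 were called higher and 2 lower, beside 8.45% and 5.76% of all genes tested, and in the libraries labelled Gli2 knockout 0 were called higher and 11 lower, beside 11.2% and 15.7%, with medians of 0.119 and -0.369. The count of 11 lower became 12 without library 3 of the knockout label, beside 34.8% of all genes, and 0 in the fit of the Cas9 groups alone, beside 4.55%. A pair of chemokines that attract monocytes led the list. Ccl2 had 617, 658 and 640.4 FPKM in Gli2CA, against 210.1, 223 and 234 FPKM in NTC, and Ccl7 averaged 154 ± 2.16 FPKM in Gli2CA and 53.4 ± 14.7 FPKM in NTC (SD, n = 3 each). Both were called higher, at 1.52 for Ccl2 and 1.54 for Ccl7 (limma, adjusted p = 0.000162 and 0.00293). Ccl7 was called lower in the libraries labelled Gli2 knockout, with 41.0 ± 17.4 FPKM against 115 ± 9.20 FPKM in Cas9-NTC (SD, n = 3 each), a call that ended in the fit of the 2 groups alone (limma, adjusted p = 0.0506). Cxcl10, a chemokine for T cells, was called lower in Gli2CA, at -0.55 (limma, adjusted p = 0.00875). Stat3, a transcription factor that answers IL-6, and Nfkb2, a subunit of NF-kappaB, were called lower in the libraries labelled Gli2 knockout, at -0.996 and -0.993 (limma, adjusted p = 0.00655 and 0.0148), and not in the fit of the 2 groups alone. The call of Nfkb2 also ended without library 1 or 2 of the knockout label or library 2 or 3 of Cas9-NTC (limma, adjusted p 0.0505 to 0.0674). The inducers themselves were at trace level: Tnf had at most 0.0760 FPKM and Il1b at most 0.0580 FPKM in any library.

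The genes whose levels followed each adhesion gene most closely over the 12 libraries were named by Pearson correlation of log2(FPKM + 1), among up to 6749 genes that average at least 5 FPKM. The libraries fall into 4 groups and 2 pairs of lines, so such values mostly show likeness between groups and are given as a description. Sele ran closest to Mrfap1 (0.978) and to Slitrk6 (0.976), a neuronal membrane protein that averaged 6.53 FPKM in Gli2CA and 1.78 FPKM in NTC, and 3.70 FPKM in the libraries labelled Gli2 knockout and 8.47 FPKM in Cas9-NTC. Selp ran with Errfi1 (0.974), an inhibitor of EGF receptors, and with Vegfa (0.951), the endothelial growth factor. For Vcam1 the closest were Tmem173 (0.998), which encodes the DNA-sensing adaptor STING, and Ly6e (0.998). Mcam was followed by Stk39 (0.999) and Grb10 (0.998), and L1cam by Col15a1 and Sox10 (both 1.000), all of which separate the pairs of lines. Alcam ran with Cpe (0.987), a carboxypeptidase of secretory granules, and Ndrg1 (0.969). Ncam1 ran with Morc2a (0.965) and Dhx15 (0.952), and Cd44 with Rcan3 and Il4ra (both 0.989).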

How the data were processed

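Poly(A)-selected RNA of 12 mouse melanoma cell libraries was sequenced, and the authors deposited FPKM per Ensembl gene in 1 table. The aligner, counter, genome build and use of strand were not given in the sources used here, so genes that overlap others are uncertain. Symbols, positions and lengths came from GENCODE M21 (GRCm38). With these lengths, 97.7 to 98.4% of values of 20 reads or fewer came out whole within 0.02 of a read, which gave depth and read counts. The floor of 3 reads covers counting error only, while the intervals come from limma and reflect variation among the libraries.

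The test was limma 3.58.1 (R 4.3.3, trended prior) on log2(FPKM + 1), with all 12 libraries in 1 fit, 2-sided, adjusted over the 11860 genes with at least 1 FPKM in 3 libraries. Icam1 and Gli2, below that filter, had exact permutation tests (2-sided, smallest p 0.1) and limma on genes above 0. Promoter sequences came from RefSeq. Other named genes are up to 3 called genes with the largest change in each list and Gli2 comparison, and the 2 most like each adhesion gene. Genes given outside this rule (defining markers, Selplg, Itgal, Tnf, Il1b and the neighbours of the selectins) were chosen after their values were seen. The genes and lists were chosen with earlier results of these data known. Alternatives were the pseudocount, the filter, scaling, the groups fitted, library weights, a replicate block, voom on recovered reads, and leaving out each library. Python 3.11.15 with pandas 2.3.3, numpy 2.4.6 and matplotlib 3.10.9 was used. The procedures were tested on simulated data. Part of the genotype of the line and values of some genes are not reported here.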

Additional observations from a re-analysis of the deposited data

Results flagged for a closer look

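For 6 of the 8 adhesion genes tested, the change of Gli2CA over NTC differed from that of the libraries labelled Gli2 knockout over Cas9-NTC by a direct test of the difference (limma, all 12 libraries). The same test called 16.7% of all genes tested higher and 11.6% lower. On the log2(FPKM + 1) scale the difference was 3.321 for Sele, 1.719 for Alcam, 1.395 for Selp, 1.148 for Cd44 and 0.9027 for Vcam1. These positive values are the Gli2CA change less that of the libraries labelled Gli2 knockout, and for Sele, Alcam and Cd44 the 2 changes were called with opposite signs. Both calls of Sele held under every alternative. The call of Cd44 in Gli2CA ended under 7 of 21 alternatives, and that of Alcam in the libraries labelled Gli2 knockout under 1. Mcam gave -1.145, from a change of -0.38 in Gli2CA, which was not called, and 0.76 in the libraries labelled Gli2 knockout. Selp passed the 1 FPKM filter through its Gli2CA libraries alone, so its place among the 6 is a description; without the filter its difference was also called (limma, adjusted p = 3.00e-05). For Selp and Vcam1 the gene was at or near trace level in 1 of the 2 pairs of lines. The knockout-labelled libraries held more Gli2 reads than Cas9-NTC, but reads per gene do not measure Gli2 activity, and no direction relative to that activity is drawn. The cause of these differences was not tested.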

How the results depend on the processing

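Of 664 alternative values for the adhesion genes, 624 kept direction and call, 22 lost the call, 12 gained one and 6 changed sign. The sign changes were Vcam1 in Gli2CA with quantile normalisation (-0.068), Selp in the libraries labelled Gli2 knockout with rescaling to a common median (0.0425), and Ncam1, at -0.195 with array weights and -0.271 without library 3 in the libraries labelled Gli2 knockout, and at 0.0146 and 0.0771 in the difference of the changes under those 2 settings. Leaving out 1 library gave Ncam1 -0.271 to 0.248 in the libraries labelled Gli2 knockout and -0.442 to 0.0771 in the difference. For other named genes, 880 of 966 values kept direction and call, 86 lost the call and 0 changed sign. The number of genes called was 1685 for Gli2CA, against 2916 in the fit of the 2 groups alone and 4445 with array weights. It was 3182 for the libraries labelled Gli2 knockout, against 762 and 9158 under these settings, and 3356 for the difference of the changes, against 8488 with array weights. Leaving out 1 library gave 1132 to 3608, 1338 to 7793 and 2373 to 7535 genes in these comparisons and 5058 to 7693 in Cas9-NTC over NTC. The highest counts came without library 3 of the knockout label. Gli2 in Cas9-NTC over NTC reached 1.9066 with a pseudocount of 0.1 (limma, adjusted p = 0.00126). Whether the replicate numbers pair the libraries cannot be decided from 3 libraries per group. Same-numbered libraries deviated together at 0.0971, 0.00555 and -0.0452 in the first pair of groups and 0.248, -0.153 and 0.196 in the second. Differently numbered libraries gave -0.0920 to 0.0751 in the first pair and -0.289 to 0.252 in the second. With the replicate block 1475, 2874, 5690 and 3100 genes were called in the 4 comparisons, and Cd44 in Gli2CA lost its call (limma, adjusted p = 0.0536). Depth limits Selp, Icam1 and L1cam in the Cas9 groups, at 0 to 4 reads per library.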

Other observations

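Markers of cell types differed between the pairs of lines. In Cas9-NTC against NTC, 3 of the 4 fibroblast markers tested were called higher and 1 lower. Of 8 Schwann and neural markers 0 and 6 were, and of 4 melanocyte markers 2 and 2, beside 24.0% and 24.9% of all genes tested. Of 10 fibroblast markers 4 were tested, with 1 called higher and 1 lower in each Gli2 comparison (limma, adjusted p under 0.05). The shares over all genes were 8.45% and 5.76% in Gli2CA, and 11.2% and 15.7% in the libraries labelled Gli2 knockout. Col1a1 was called lower in Gli2CA, at 2.44 FPKM against 4.75 FPKM in NTC, and Pdgfra higher, at 2.52 FPKM against 1.30 FPKM. Pdgfra was called lower in the libraries labelled Gli2 knockout, at 0.620 FPKM against 1.91 FPKM in Cas9-NTC. Fap, a protease of activated fibroblasts, was called higher, with 19.8, 19.0 and 12.7 FPKM in the libraries labelled Gli2 knockout, against 6.42, 5.86 and 5.70 FPKM in Cas9-NTC, and was at 0 in every Gli2CA and NTC library. Of 10 Schwann and neural markers 8 were tested. In Gli2CA 1 was called higher (Egr2, at 6.72 FPKM against 3.18 FPKM in NTC) and 3 lower, among them S100b at 62.2 FPKM against 91.7 FPKM. The shares over all genes tested were 8.45% and 5.76%. In the libraries labelled Gli2 knockout 0 were called higher and 1 lower, beside 11.2% and 15.7% of all genes tested. The gene called was Egr2, at 0.230 to 0.426 FPKM against 0.759 to 1.01 FPKM in Cas9-NTC. The summed level of the 10 markers was 695 to 731 FPKM in Gli2CA and 743 to 765 FPKM in NTC, and 130.4 to 154 FPKM in the libraries labelled Gli2 knockout and 141 to 149.6 FPKM in Cas9-NTC. Of 14 melanocyte markers 4 were tested. In Gli2CA 0 were called higher and 2 lower, beside 8.45% and 5.76% of all genes tested. These were Rab38, at 1.31 FPKM against 5.22 FPKM in NTC, and Gpnmb, at 5.24 FPKM against 10.7 FPKM in NTC. In the libraries labelled Gli2 knockout 0 were called higher and 1 lower, beside 11.2% and 15.7% of all genes tested. The gene called there was Gpnmb, at 74.8 FPKM against 109.5 FPKM in Cas9-NTC.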
